A study of Mus musculus with 20 samples.

Results

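Interferon-stimulated effector genes encode the proteins with which a cell restricts viruses and other intracellular microbes, and their mRNA levels were examined here in DC2 cells, an immortalized line labelled as principal cells of the distal caput of the mouse epididymis. A list of 43 such genes was fixed by symbol, with earlier results of these data known. Of these, 41 have a row among the 21509 protein-coding genes of the tables, and Oas1b and Mx2 have none. RNA-seq was performed in 2 experiments, each with its own table. In the first, 6 libraries came from cells under fluid flow (a shear stress of 1 dyn/cm2, applied over 3 h) and 6 from cells kept without flow (static). In the second, 4 libraries came from cells transfected with a mixture of siRNAs against Ift88 (Ift88 siRNA) and 4 from cells transfected with a scrambled siRNA from another supplier (control siRNA). Both siRNA groups carried the transfection reagent and were under flow according to the study's methods, although their labels do not name flow. No untransfected library enters this comparison, so an effect shared by both siRNA groups cannot be seen. Ift88 encodes a component of intraflagellar transport that is needed to build primary cilia. The comparisons address whether flow, or Ift88 siRNA under flow, changed the expression of these genes. The siRNA preparations differ in sequence and supplier, so an effect of the siRNAs themselves cannot be told apart from one of lower Ift88.

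Type I interferons bind a receptor whose kinases phosphorylate transcription factors of the STAT family. With IRF9 these form a complex that binds interferon-stimulated response elements (ISRE) in promoters, and IRF3 and IRF7 bind closely related elements after nucleic acid sensors such as RIG-I and MDA5 are activated, so that a part of the genes can be induced without secreted interferon. The products include IFIT proteins that bind foreign RNA, OAS enzymes that activate RNase L, the ubiquitin-like modifier ISG15, GTPases that attack membranes of intracellular pathogens and enzymes that deplete or alter nucleotides. In the epididymis these genes belong to the defence of an epithelium that is exposed to ascending infection.

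Expression was given as TPM, a transcript abundance that is corrected for transcript length, sums to the same total in each library and holds no read totals, so the sequencing depth and the counting error are unknown. Between 15292 and 15382 genes were above 0 in the control siRNA libraries, 15713 to 16682 in the Ift88 siRNA libraries, 15543 to 16562 in the static libraries and 15580 to 16300 in the flow libraries. Markers of mature principal cells were absent or nearly so, with Aqp9 at no more than 0.413 TPM, Lcn5 at no more than 0.245 TPM and Crisp1 listed at 0 in all libraries, while the epithelial keratins Krt18 (23.2 to 159 TPM) and Krt19 (5.32 to 26.0 TPM) were expressed and Krt8 (no more than 1.17 TPM), Cdh1 (no more than 1.73 TPM) and Epcam (no more than 0.332 TPM) were low. The labels of 1 library conflict, since its title gives flow and its treatment entry gives static, and it was counted as flow replicate 6. This library and static replicate 6 stood apart from the others in the genes described here, and results are given with and without them where that changes a value. The labels do not say whether libraries came from separate cultures, so p-values measure the spread between these samples, which may be technical. In bulk RNA, fewer cells expressing a gene and less RNA per cell cannot be told apart.

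The genes lie on several chromosomes and partly in clusters. The 4 IFIT genes are neighbours on chromosome 19, all 7 OAS genes are on chromosome 5, and Gbp2, Gbp3 and Gbp7 are on chromosome 3. Some of the genes share much of their sequence with a copy. Of the 31-base stretches of Ifit3, 61.8% also occur in another gene, chiefly Ifit3b, and the shares are 68.8% for Oas1a, 64.9% for Apol9b and 20.2% for Apol9a, so the reads of these pairs could be divided between the copies with some uncertainty. For Ifit2 and Usp18 the share was 0%, and it was 0.112% for Oasl1. It was 10.5% for Ifit1, 12.8% for Isg15 and 14.7% for Gbp7.

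To show the element that many of the genes have in common, promoters were searched for the core of the ISRE, which is GAAA followed after any 2 bases by a further GAAA, or on the other strand TTTC followed after any 2 bases by a further TTTC, in the 250 bases before the start. Promoters were matched in RefSeq (GRCm38.p6) for 34 of the 43 genes, and 18 of these (52.9%) held at least 1 match, against 3.46% of 27025 genes. The gamma-activated site TTCNNNGAA, which is its own reverse complement and was searched separately, was found in 8 of the 34 (23.5%) against 8.13% of all genes. The sequences below are shown because they belong to 3 of the genes that rose after Ift88 siRNA. Each runs 5′ to 3′ on the strand of its gene and ends just before the annotated transcript start, and capitals mark the ISRE core matches. Overlapping matches were counted separately.
Ifit1 (chr19:34640739-34640870, plus strand): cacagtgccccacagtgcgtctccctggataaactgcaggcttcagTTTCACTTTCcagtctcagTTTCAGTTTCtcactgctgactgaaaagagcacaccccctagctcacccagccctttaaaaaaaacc
Isg15 (chr4:156200819-156200968, minus strand): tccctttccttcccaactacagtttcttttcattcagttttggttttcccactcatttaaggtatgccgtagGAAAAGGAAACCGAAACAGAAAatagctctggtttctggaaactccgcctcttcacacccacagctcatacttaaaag
Gbp7 (chr3:142530186-142530335, plus strand): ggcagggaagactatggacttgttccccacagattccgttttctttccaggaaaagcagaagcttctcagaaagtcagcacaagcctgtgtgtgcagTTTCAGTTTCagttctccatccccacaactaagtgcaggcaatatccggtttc

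The Ifit1 stretch holds 2 separate matches, the Isg15 stretch 3 that overlap in 1 run, and the Gbp7 stretch 1. Among the other genes that rose after Ift88 siRNA, no match was found in the windows of Oasl1 and Ifit2, and Apol9a had 2. Genes that did not pass the test also held the element, among them Gbp2, Gbp3, Bst2, Irgm1 and Irgm2. So did Oas1a, whose level in the siRNA libraries was too low for it to be tested. A match describes the letters of the window and does not show that a factor binds there.

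After Ift88 siRNA, the targeted gene was lower in each library. Ift88 was at 4.21, 4.08, 4.15 and 4.12 TPM in the control siRNA libraries and at 1.71, 1.27, 1.28 and 0.917 TPM in the Ift88 siRNA libraries, so the groups did not overlap and differed in the direction of their labels (log2 fold change of -1.17, SE 0.13, limma adjusted p = 0.00212).

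Several interferon-stimulated genes rose in the cells with Ift88 siRNA. Of the 29 genes that reached a mean of 1 TPM over the siRNA libraries, 6 rose, namely Ifit1, Ifit2, Isg15, Oasl1, Gbp7 and Apol9a, and 0 fell. A gene was called at a limma adjusted p under 0.05 over all 11209 genes tested and a change of more than 1.5-fold, which 0.152% of all genes passed with a higher level and 0.0714% with a lower one. At an unadjusted p under 0.05, 17 of the 29 were higher and 0 lower, against 9.02% higher and 4.91% lower among all genes. The log2 fold change, computed on log2(TPM + 1), had a median of 0.43 over the 29 genes and of 0.02 over all genes tested. It ranged from 0.01 (Ifitm3) to 1.01 (Oasl1) and was above 0 for all 29, while 55% of all genes tested were higher. The scale understates the change of genes at low TPM. Because a gene at low levels can pass the filter through the group in which it is high, the 12 genes below it were examined as well. Their mean TPM was higher after Ift88 siRNA for all 12, and thus for all 41 genes with a row, against 60.8% of the genes above 0 in at least 1 library. The Ift88 siRNA libraries also had more genes above 0 than the control siRNA libraries, with no overlap between the groups, and the part of this in the result was not tested.

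**Figure D1:**
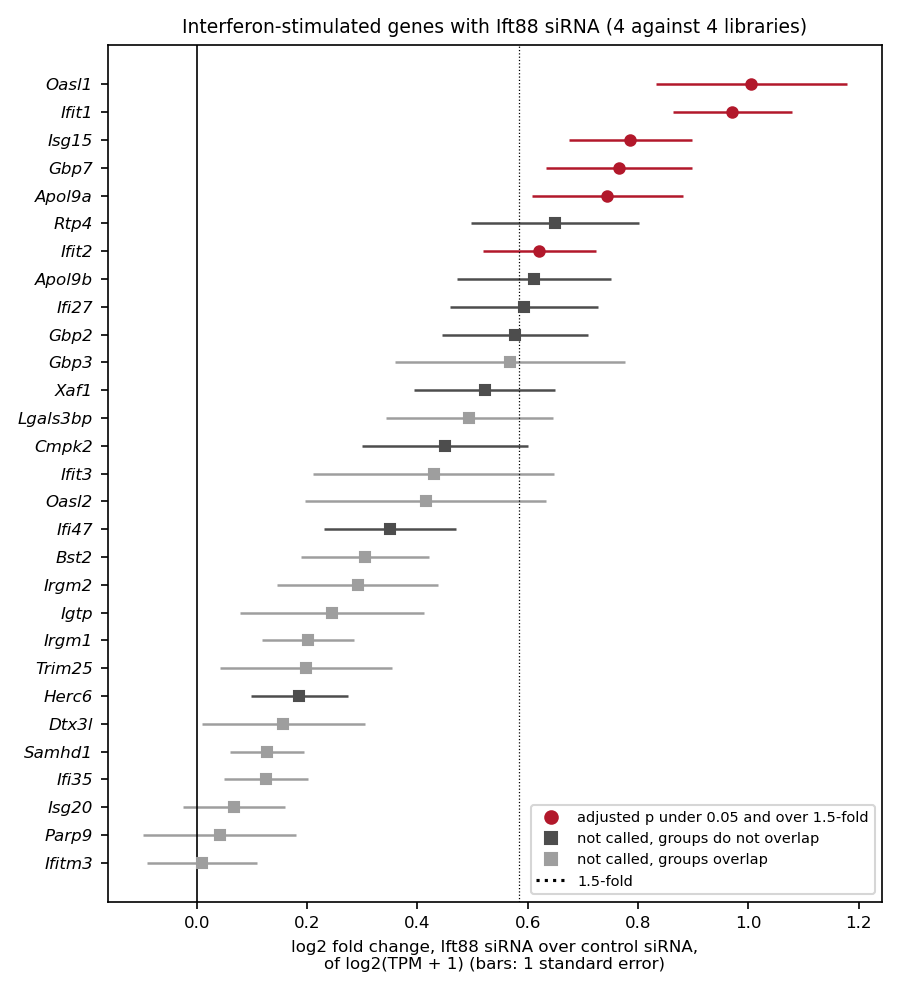
Log2 fold change of log2(TPM + 1) after Ift88 siRNA against control siRNA (x axis) for the 29 interferon-stimulated genes tested, ordered by size, with bars of 1 standard error from limma, called genes as red circles and genes not called as squares (dark where the groups did not overlap), and a dotted line at 1.5-fold. The points lie between 0.01 (Ifitm3) and 1.01 (Oasl1), and the 6 called genes are spread over the IFIT, OAS, ISG15, GTPase and apolipoprotein L groups.

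In the IFIT family, whose proteins bind RNA through tetratricopeptide repeats, 2 of 3 tested genes rose. Ifit1 (ENSMUSG00000034459, chromosome 19, 34640871 to 34650009), which recognises RNA with an incompletely methylated cap, was at 14.4, 15.0, 13.2 and 12.8 TPM in the control siRNA libraries and at 32.1, 28.6, 29.6 and 22.8 TPM in the Ift88 siRNA libraries. The lowest Ift88 siRNA library was above the highest control library, and the mean TPM was 2.04 times higher (log2 fold change of 0.97, SE 0.11, limma adjusted p = 0.00206). Ifit2 (ENSMUSG00000045932, chromosome 19, 34550694 to 34576419), a partner of the other IFIT proteins, was at 35.1, 33.8, 33.6 and 30.7 TPM against 65.5, 47.3, 49.5 and 46.5 TPM. The groups were again separate, with Ift88 siRNA replicate 1 the highest (log2 fold change of 0.62, SE 0.10, limma adjusted p = 0.0209). Ifit3, which stabilises IFIT1 on RNA, was at 2.55, 2.56, 1.86 and 2.16 TPM against 4.74, 5.34, 2.26 and 2.17 TPM, so that only Ift88 siRNA replicates 1 and 2 exceeded all control libraries (log2 fold change of 0.43, not called). Its copy Ifit3b stayed below the filter.

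In the OAS family, Oasl1 rose and Oasl2 was not called. Oasl1 (ENSMUSG00000041827, chromosome 5, 114923240 to 114937915), an OAS-like protein without synthetase activity that in mice represses translation of Irf7 mRNA, was at 1.57, 2.66, 1.29 and 1.65 TPM in control and at 4.85, 5.88, 3.89 and 3.69 TPM in Ift88 siRNA libraries. The groups did not overlap and the ratio of the means was 2.56, the highest among the called genes (log2 fold change of 1.01, SE 0.17, limma adjusted p = 0.0238). Oasl2, its paralog with synthetase activity, was at 1.73, 2.06, 3.24 and 1.94 TPM against 5.85, 2.90, 2.74 and 2.30 TPM, where the higher mean rested mainly on Ift88 siRNA replicate 1. The synthetases proper were expressed at low levels. Oas1a was below the filter with 0.591, 0.730, 0.0731 and 0.517 TPM in control and 1.11, 1.22, 0.988 and 0.829 TPM in Ift88 siRNA libraries. These groups did not overlap, whereas Oas3 had a ratio of 1.00 and Oas1g was listed at 0 in 3 of the 4 control libraries.

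Of the ISG15 system, the modifier itself rose while its ligase and protease were not called. Isg15 (ENSMUSG00000035692, chromosome 4, 156199424 to 156200818), the ubiquitin-like protein that is conjugated to other proteins, was at 31.8, 26.7, 21.9 and 31.9 TPM in control and at 54.0, 47.1, 46.8 and 46.7 TPM in Ift88 siRNA libraries. All Ift88 siRNA libraries lay above all control libraries (log2 fold change of 0.79, SE 0.11, limma adjusted p = 0.00855). Herc6, the main ligase for ISG15 in mice, was at 12.3, 12.7, 12.2 and 12.6 TPM against 15.0, 13.4, 15.2 and 13.7 TPM, a small difference without overlap that was not called (log2 fold change of 0.19). Trim25, a ligase that modifies RIG-I, had a log2 fold change of 0.20. Usp18, the protease that removes ISG15 and also restrains the interferon receptor, was below the filter, and its groups overlapped (0.377, 1.14, 0.357 and 1.24 TPM against 0.415, 1.58, 0.709 and 1.17 TPM).

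Among the GTPases, 1 of 7 tested genes rose. Gbp7 (ENSMUSG00000040253, chromosome 3, 142530342 to 142550149), a guanylate-binding protein, was at 2.22, 2.02, 1.60 and 2.12 TPM in control and at 4.48, 4.61, 3.82 and 3.45 TPM in Ift88 siRNA libraries. The groups did not overlap and the mean was 2.05 times higher (log2 fold change of 0.77, SE 0.13, limma adjusted p = 0.0241). Its neighbour Gbp2 was at 2.69, 3.07, 2.79 and 3.51 TPM against 4.78, 5.15, 4.09 and 6.01 TPM, also without overlap, but missed the adjusted threshold (log2 fold change of 0.58, SE 0.13, limma adjusted p = 0.0811). Gbp3 had a log2 fold change of 0.57. The immunity-related GTPases Ifi47, Irgm2, Igtp and Irgm1, which act on vacuoles that hold pathogens, had values from 0.20 (Irgm1) to 0.35 (Ifi47), and 0 of these 4 were called. Mx1, a dynamin-like antiviral GTPase, was at no more than 0.504 TPM in these libraries.

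Of the apolipoprotein L, mitochondrial and other genes, 1 of 5 tested rose. Apol9a (ENSMUSG00000057346, chromosome 15, 77403789 to 77411135), a member of the apolipoprotein L family, was at 16.4, 19.3, 13.1 and 20.1 TPM in control and at 29.1, 36.0, 27.6 and 25.1 TPM in Ift88 siRNA libraries. The groups did not overlap (log2 fold change of 0.74, SE 0.14, limma adjusted p = 0.0371). Its copy Apol9b was at 17.0, 12.8, 11.8 and 15.1 TPM against 21.9, 27.6, 21.9 and 17.4 TPM, separate by a narrow margin and not called (log2 fold change of 0.61, limma adjusted p = 0.0795). Since the pair shares sequence, the division of reads between them is uncertain. Ifi27, a small hydrophobic interferon-induced protein, was at 4.85, 5.12, 4.82 and 5.41 TPM against 10.01, 6.35, 7.41 and 9.16 TPM (log2 fold change of 0.59, limma adjusted p = 0.0773). Xaf1, a pro-apoptotic factor, was at 9.87, 7.70, 9.79 and 11.6 TPM against 12.6, 14.6, 13.4 and 16.9 TPM (log2 fold change of 0.52, limma adjusted p = 0.0922). Neither overlapped between groups and neither was called, and Ifi35 had a log2 fold change of 0.13.

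The remaining genes included 0 calls. Rtp4, a chaperone for receptor transport, had the highest log2 fold change of any gene not called (0.65, limma adjusted p = 0.0852), with 2.54, 3.13, 4.40 and 4.08 TPM in control and 4.91, 6.62, 6.35 and 6.35 TPM in Ift88 siRNA libraries. Of the other membrane and secreted factors, Lgals3bp had a log2 fold change of 0.49, the virion tether Bst2 one of 0.31 and Ifitm3, which blocks membrane fusion by viruses, one of 0.01. Ifitm3 was at 87.0, 101, 77.8 and 99.0 TPM against 88.2, 78.7, 94.4 and 105 TPM, so it differed by less than the spread between libraries. The nucleotide and RNA enzymes Cmpk2 (0.45), Samhd1 (0.13) and Isg20 (0.07) and the pair Dtx3l (0.16) and Parp9 (0.04), which form a ubiquitin ligase complex, were not called. Cmpk2, a mitochondrial nucleotide kinase, passed the filter only through the Ift88 siRNA group, in which it was at 1.43, 0.968, 1.69 and 1.65 TPM against 0.683, 0.643, 0.958 and 0.809 TPM in control. Rsad2 (viperin), which makes a chain-terminating nucleotide and is encoded beside Cmpk2, stayed below the filter with 0.581, 0.451, 0.46 and 0.557 TPM in control and 1.88, 1.52, 1.01 and 1.39 TPM in Ift88 siRNA libraries, a ratio of 2.83 without overlap. In all, 14 of the 29 tested genes did not overlap between the groups and were higher after Ift88 siRNA, against 5.79% of all genes tested, and of the 12 genes below the filter this held for Rsad2, Oas1a and Sp100. Thus 17 of the 41 genes with a row did not overlap, against 4.31% of the genes above 0 in at least 1 library.

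**Figure D2:**
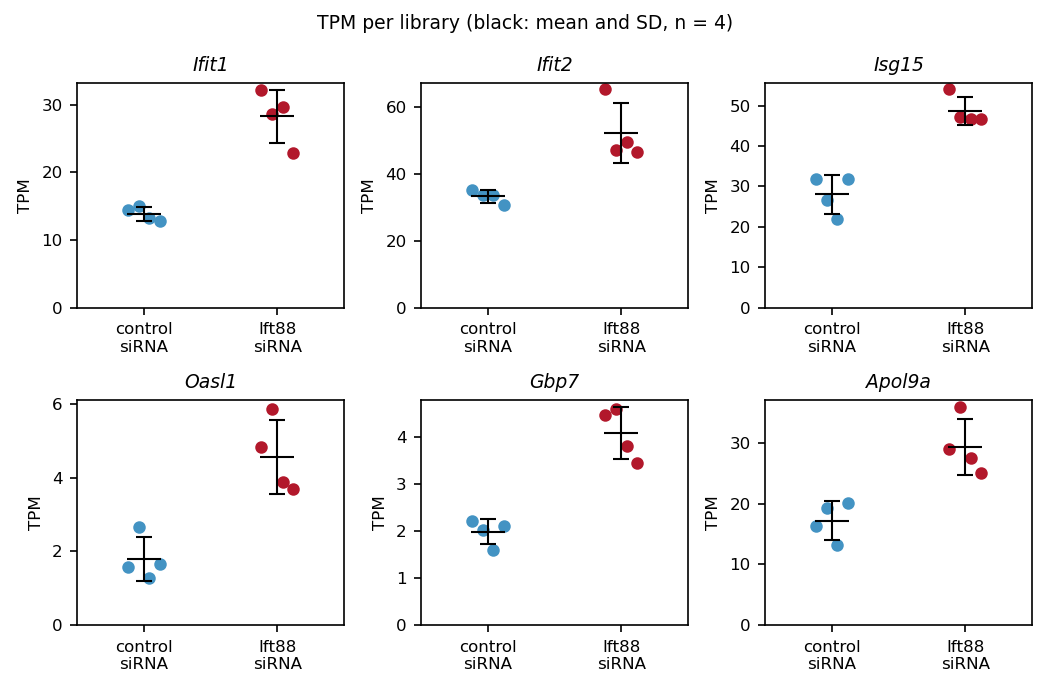
TPM (y axis) of the 6 called genes in each control siRNA and Ift88 siRNA library, with the black bars giving the mean and SD (n = 4). For each gene the lowest Ift88 siRNA library lies above the highest control library, for example 22.8 against 15.0 TPM for Ifit1.

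Leaving out single libraries changed the calls more than the fold changes. When each of the 8 libraries was left out in turn, Ifit1 and Isg15 were called in all 8 fits, Ifit2 in 5, Oasl1 and Apol9a in 3 each and Gbp7 in 1. The count fell from 6 to 2 without control siRNA replicate 1 or without Ift88 siRNA replicate 1, and to 3 without control siRNA replicate 3, control siRNA replicate 4 or Ift88 siRNA replicate 2. In these 8 fits the log2 fold change of Ifit1 was between 0.91 and 1.07, that of Isg15 between 0.68 and 0.85 and that of Ifit2 between 0.51 and 0.67. Oasl1 was between 0.90 and 1.14, Apol9a between 0.63 and 0.82 and Gbp7 between 0.70 and 0.83. Without the filter on low TPM, which raised the number of genes tested to 19195, 1 gene (Ifit1) was called.

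The genes upstream in the pathway were examined next. Interferon genes themselves were near the lower limit of the data. Their summed TPM was 0.186 to 1.08 in control and 0.243 to 0.879 in Ift88 siRNA libraries, and Ifnb1, which encodes interferon beta, was listed at 0 in 6 of the 8. Of the interferon receptor genes, 0 of 5 tested were called, with log2 fold changes from 0.04 to 0.12. Of the JAK, STAT and IRF genes 0 of 12 were called. Here Irf7 had a log2 fold change of 0.47 (limma adjusted p = 0.220) and Stat2 one of 0.45 (limma adjusted p = 0.135). At an unadjusted p under 0.05, 3 of the 12 were higher, against 9.02% of all genes. Of the nucleic acid sensors and adaptors 1 of 11 was called, against 0.152% of all genes called higher. It was Ifih1, which encodes the RNA sensor MDA5, with 6.40, 6.19, 4.58 and 5.05 TPM in control and 10.8, 10.1, 9.31 and 7.74 TPM in Ift88 siRNA libraries (log2 fold change of 0.68, SE 0.13, limma adjusted p = 0.0480). With each library left out in turn, Ifih1 passed both thresholds in 1 of 8 fits, and its log2 fold change was 0.60 to 0.76. Feedback inhibitors (0 of 4, 0 at an unadjusted p under 0.05) and MHC class I genes (0 of 7, 3 higher at an unadjusted p under 0.05) were not called by limma.

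Of the 3 chemokines tested, 1 rose, against 0.152% of all genes called higher. Ccl5, a chemoattractant for leukocytes, was at 71.9, 71.5, 65.7 and 53.6 TPM in control and at 155, 148, 176 and 172 TPM in Ift88 siRNA libraries, and it was called in all 8 fits that left out a library (log2 fold change of 1.30, SE 0.09, limma adjusted p = 5.01e-05). Cxcl10, a ligand of CXCR3, was at 154, 151, 137 and 144 TPM against 215, 225, 226 and 208 TPM. Its adjusted p was 0.00149 by limma, and its log2 fold change of 0.57 lay just under the limit of 0.58 that corresponds to 1.5-fold. Neither chemokine overlapped between the groups, and Ccl2 was not called (log2 fold change of -0.24).

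Markers of other cell types overlapped between the siRNA groups. The summed TPM of the immune list was 90.7 to 100 in control and 87.9 to 97.0 in Ift88 siRNA libraries, and nearly all of it came from Cd68, a lysosomal protein that other cells can express. Tyrobp and Cd3e were listed at 0 in all 20 libraries and Ptprc, the pan-leukocyte marker, was at no more than 0.0878 TPM. Of the list of 3 plasmacytoid dendritic cell markers only Tcf4 and Bst2 passed the filter, and neither was called, as were 0 of 3 epithelial markers tested. Fibroblast markers summed to 1.41 to 2.73 TPM in control and 1.36 to 2.00 TPM in Ift88 siRNA libraries, and endothelial markers to 1.31 to 1.54 and 0.796 to 1.74 TPM.

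Flow gave no call among the same genes. Of the 34 genes that reached a mean of 1 TPM over the static and flow libraries, 0 were called, 0 had an unadjusted p under 0.05 by limma and 0 were without overlap between the groups, against 0.105% of 11388 genes called higher under flow and 0% called lower, 2.05% and 1.79% at an unadjusted p under 0.05, and 0.492% and 0.0527% without overlap. The log2 fold change was above 0 for 14 and below 0 for 20 (38.8% and 61.2% of all genes tested), with a median of -0.03, which was also the median of all genes tested. The median over the 34 genes was -0.11 without static replicate 4, 0.06 without flow replicate 4 and -0.08 without both libraries numbered 6. Over all settings other than single libraries left out, the median of the tested genes lay between -0.18 and -0.001. Single log2 fold changes ranged from -0.28 for Oasl2 (SE 0.25) to 0.45 for Rsad2 (SE 0.22, unadjusted p = 0.0631). The estimate for Rsad2 was 0.26 without flow replicate 6, 0.38 without both libraries numbered 6 and 0.07 with flow replicate 6 counted as static, and that for Oasl2 was -0.15 without flow replicate 4 and -0.43 without flow replicate 2. The median SE was 0.21, against 0.11 over all genes tested.

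Deviations of flow and static libraries of 1 number were correlated over all genes tested. A fit with the numbers taken as pairs and used as blocks had a median SE of 0.10 over the 34 genes and of 0.08 over all genes tested. In this fit 0 of the 34 genes were called, against 0.597% of all genes higher and 0% lower. At an unadjusted p under 0.05, 3 of the 34 were higher under flow and 1 lower, against 3.94% higher and 7.17% lower among all genes. The 3 were Rsad2 (0.45, SE 0.12), Isg15 (0.21, SE 0.06) and Ifit1 (0.24, SE 0.11), each higher under flow in 5 of 6 pairs, and the other was Oasl2 (-0.28, SE 0.09), higher under flow in 1 of 6. Their limma adjusted p-values in the blocked fit were between 0.214 (Rsad2) and 0.447 (Ifit1). A p above the threshold does not show that flow had no effect on them.

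The genes that rose after Ift88 siRNA overlapped between flow and static. Ifit1 was at 9.47 to 13.8 TPM in static libraries (median 12.2) and at 11.4 to 20.01 TPM under flow (median 14.4), with a log2 fold change of 0.24 (SE 0.13). This estimate was 0.15 without flow replicate 6, 0.14 without both libraries numbered 6 and 0.05 with flow replicate 6 counted as static, and the libraries numbered 1 to 3 alone gave 0.00 and those numbered 4 to 6 alone 0.47. Isg15 was at 37.7 to 75.5 TPM (median 60.4) against 42.7 to 84.5 TPM (median 69.4). Oasl1 was at 2.12 to 8.06 TPM (median 5.47) against 1.58 to 13.2 TPM (median 5.62). In each case the ranges of the groups overlapped. Ifit2 was at 36.8 to 48.0 TPM (median 42.9) against 38.2 to 52.8 TPM (median 40.4), Gbp7 at 1.49 to 3.59 TPM (median 2.22) against 1.06 to 4.33 TPM (median 2.02), and Apol9a at 51.7 to 84.4 TPM (median 73.6) against 44.8 to 97.2 TPM (median 81.3). The signs of the log2 fold changes of Ifit2, Oasl1 and Apol9a depended on single libraries. The count stayed at 0 with flow replicate 6 counted as static, without both libraries numbered 6, within replicates 1 to 3 and within replicates 4 to 6. The difference in the effect of flow between replicates 4 to 6 and 1 to 3 was also tested. It was called by limma for 0 of 34 genes, with 0 at an unadjusted p under 0.05, against 0% called and 0.966% higher and 1.12% lower at an unadjusted p under 0.05 among all genes, and the largest estimate was that of Ifit1 (0.47, SE 0.22).

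Of the pathway lists, 0 of the receptor (5 tested), JAK, STAT and IRF (12), sensor (11), feedback inhibitor (4), MHC class I (8) and chemokine (3) genes were called by limma between flow and static. At an unadjusted p under 0.05 there were 5 in all, each higher under flow, against 2.05% higher and 1.79% lower among all genes. Among them were Ifih1, Ccl2 (log2 fold change of 1.13) and Cxcl10. Cxcl10 was at 188 to 322 TPM in static and 227 to 556 TPM in flow libraries (log2 fold change of 0.61, limma adjusted p = 0.817).

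**Figure D3:**
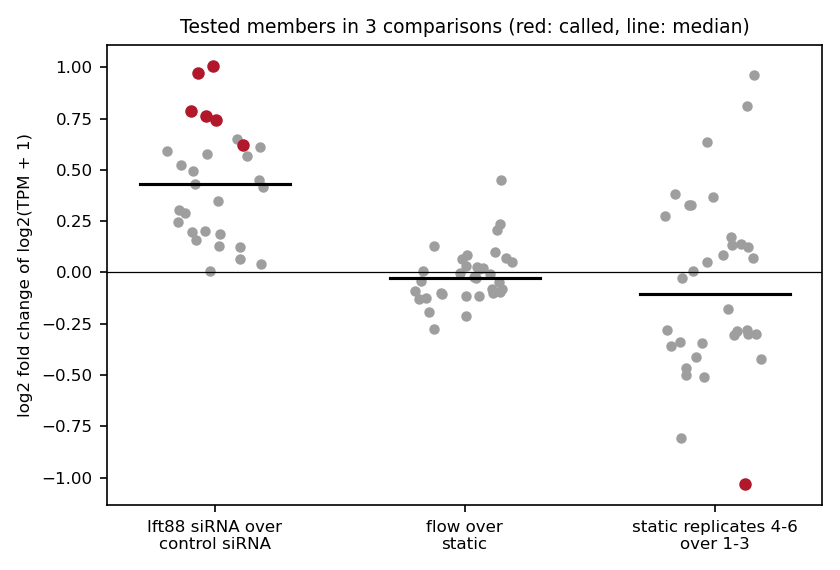
Log2 fold change of log2(TPM + 1) (y axis) of each tested interferon-stimulated gene in 3 comparisons (x axis), with called genes in red and the median as a line. The genes lie above 0 after Ift88 siRNA (median 0.43), on both sides of 0 between flow and static (median -0.03, between -0.11 and 0.06 with single libraries left out), and widely spread between static replicates 4 to 6 and 1 to 3 (median -0.10, between -0.30 and 0.08 with single libraries left out); the last 2 comparisons share the static libraries.

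In the flow experiment, the libraries numbered 4 and those numbered 6 stood apart in both conditions over these genes. Those numbered 3 and 5 were less alike. In static replicates 3 and 5, 20 and 19 of the 34 tested genes were above their own mean, against 11 and 12 under flow. In both conditions the library numbered 6 was the highest for a subset of genes, and the library numbered 4 had the lowest sum over the 41 genes (653 TPM in static and 594 TPM under flow). The sums of the pair numbered 6 were 1059 TPM in static and 1252 TPM under flow, and those of the other libraries were between 763 and 914 TPM. Ifi27 in replicates 1 to 6 was at 4.72, 5.62, 8.53, 2.95, 16.1 and 38.4 TPM in static and at 4.59, 11.3, 4.45, 2.54, 12.3 and 52.8 TPM in flow libraries. Usp18 was at 1.00, 1.92, 1.16, 1.11, 2.23 and 5.92 TPM against 0.849, 1.79, 1.28, 0.632, 1.61 and 7.12 TPM. Oas1a was at 0.339, 1.07, 0.917, 0.595, 1.54 and 6.07 TPM against 0.858, 1.82, 0.926, 0.419, 1.05 and 7.86 TPM. Each of these was highest in replicate 6 of both conditions. The same held for Bst2 (208 and 245 TPM, others 74.3 to 157 TPM), for Xaf1 (24.0 and 21.7 TPM, others 7.09 to 14.0 TPM) and for Rsad2 (3.09 and 6.25 TPM, others 1.03 to 2.70 TPM). Low-level genes showed it as well, with Oas2 at 0.655 and 1.07 TPM (others at no more than 0.205 TPM), Oas3 at 1.24 and 1.29 TPM (others at no more than 0.394 TPM) and Mx1 at 1.70 and 1.57 TPM (others at no more than 0.688 TPM).

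Other genes on the list did not share this pattern. Gbp2 in replicates 1 to 6 was at 5.19, 8.99, 6.65, 2.48, 2.90 and 3.07 TPM in static and at 3.98, 12.1, 4.12, 1.90, 4.00 and 3.83 TPM in flow libraries, highest in replicate 2. Oasl1 was at 8.05, 5.93, 8.06, 4.67, 2.12 and 5.02 TPM against 13.2, 5.21, 10.4, 6.02, 1.58 and 4.06 TPM, highest in replicates 1 and 3 and lowest in replicate 5 of both conditions. Isg15 was at 75.5, 59.3, 67.2, 48.4, 37.7 and 61.5 TPM against 84.5, 56.9, 78.7, 60.0, 42.7 and 83.4 TPM, and Ifit1 was at 13.6, 12.7, 13.8, 11.5, 9.47 and 11.6 TPM against 14.4, 11.4, 14.6, 14.3, 12.7 and 20.01 TPM. Isg15 was lowest in replicate 5 of both conditions, and Ifit1 was highest in replicate 6 under flow alone. In the pair numbered 6, the immune marker list summed to 65.4 TPM in static and 40.4 TPM under flow, against 10.6 to 23.6 TPM in the other libraries. Nearly all of it came from Cd68, at 64.0 and 39.6 TPM in this pair. Ptprc was at no more than 0.0878 TPM in static and 0.0325 TPM in flow libraries. Tyrobp and Cd3e were listed at 0 in this pair as well, and the part of these markers in the pattern was not tested.

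**Figure D4:**
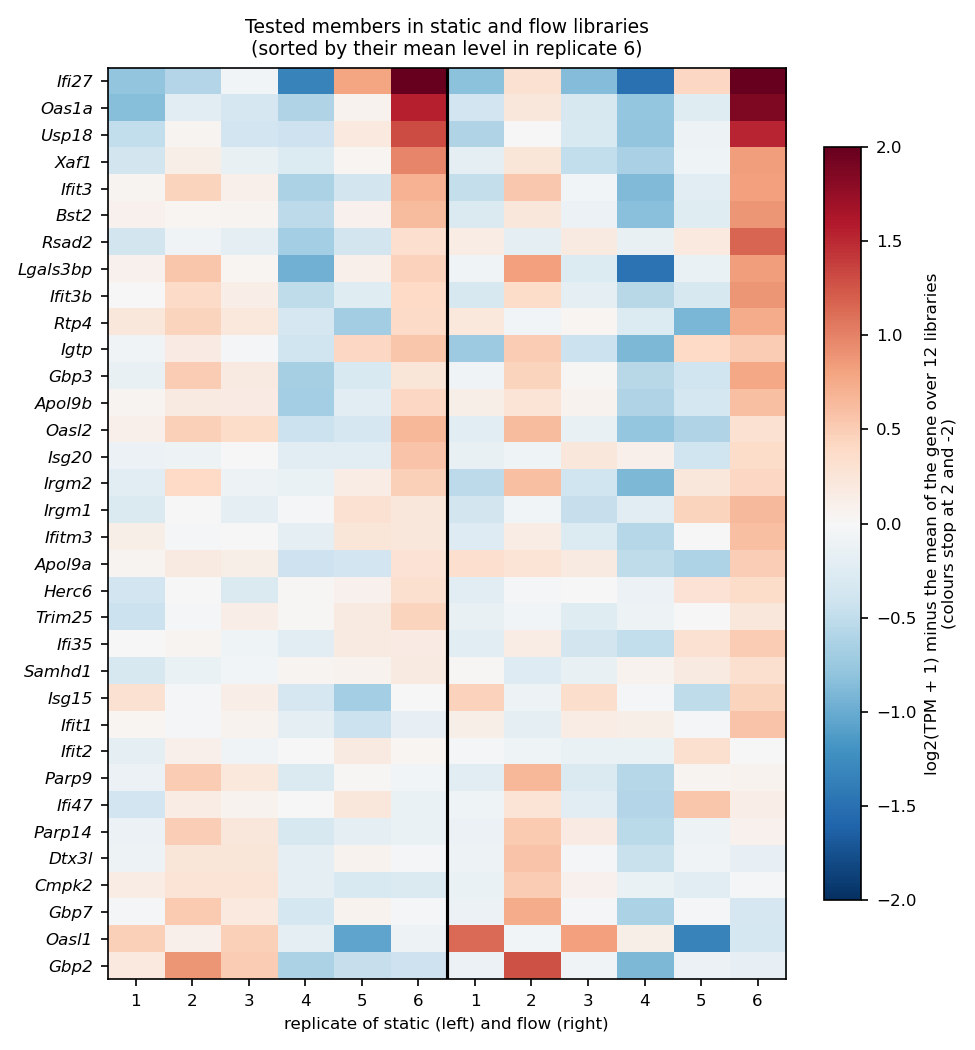
Deviation of log2(TPM + 1) of each gene from its mean over the 12 static and flow libraries (colour, stopping at 2 and -2), with static libraries in the left columns and flow libraries in the right ones, each by replicate number, and genes sorted by their level in replicate 6. The pair numbered 6 is high for Ifi27, Oas1a and Usp18 and the pair numbered 4, which had the lowest sums, is low for Ifi27 and Lgals3bp.

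**Figure D5:**
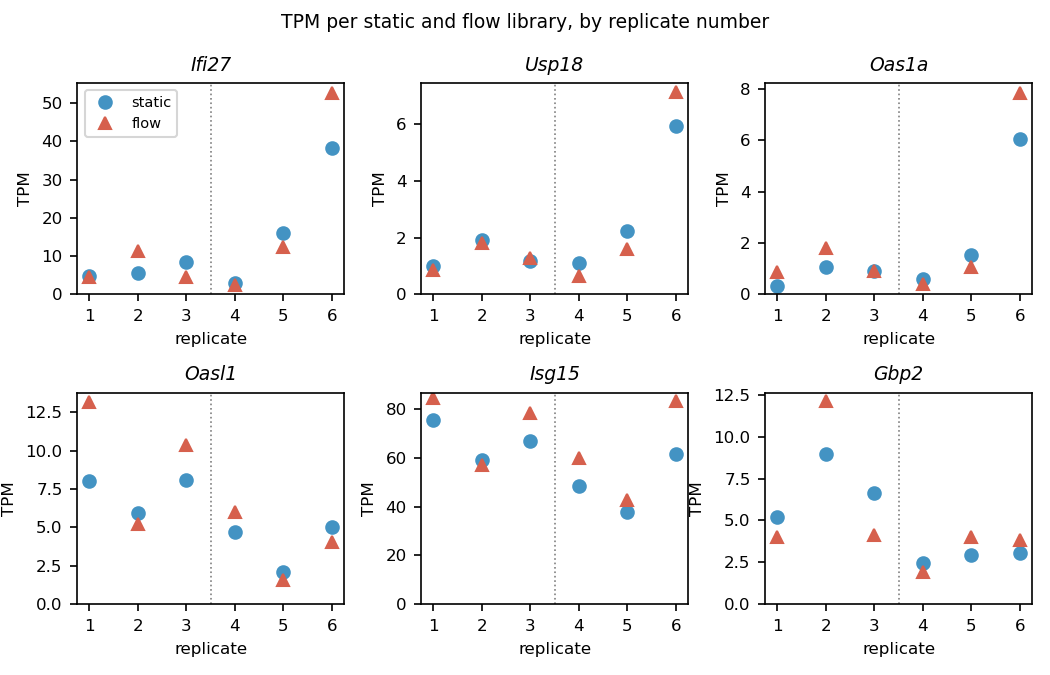
TPM (y axis) of 6 interferon-stimulated genes by replicate number (x axis) in static (circles) and flow (triangles) libraries, with a dotted line between replicates 3 and 4. Ifi27, Usp18 and Oas1a peak in replicate 6 of both conditions (38.4 and 52.8 TPM for Ifi27), while Oasl1 is highest in replicates 1 and 3 and Gbp2 in replicate 2.

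Static replicates 4 to 6 were then compared with static replicates 1 to 3. This split is in no label and was proposed after a principal component of these libraries had been seen, so its calls describe these 6 libraries and nothing is tested by them beyond that. Of the 34 genes 1 was called, Gbp2, which was lower in replicates 4 to 6 (2.48, 2.90 and 3.07 TPM) than in replicates 1 to 3 (5.19, 8.99 and 6.65 TPM), with a log2 fold change of -1.03 (SE 0.19, limma adjusted p = 0.0260). Among all genes 1.82% were called higher and 0.562% lower, so the share of calls among the interferon-stimulated genes was near the background. The 2 sets of libraries differed over the whole transcriptome, with a median log2 fold change of 0.14 over all genes, which became -0.01 with median-of-ratios scaling. The median over the 34 genes was -0.10, and it was -0.25 relative to the median of all genes. It was -0.30 without static replicate 6 and 0.08 without static replicate 4.

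The genes diverged in this comparison. Lower without overlap in replicates 4 to 6 were 5 of the 34, namely Gbp2, Oasl1 (log2 fold change of -0.81, limma adjusted p = 0.0730), Cmpk2 (-0.50), Parp14 (-0.41), an ADP-ribosyltransferase, and Ifit1 (-0.28), against 4.46% of all genes. Higher without overlap were 2, Herc6 (0.37) and Samhd1 (0.28), the latter an enzyme that degrades deoxynucleotides, against 31.3% of all genes. The genes that peaked in the pair numbered 6 had positive estimates with wide errors and were not called, as Ifi27 (0.96, SE 0.63), Oas1a (0.81, SE 0.45) and Usp18 (0.63, SE 0.36). At an unadjusted p under 0.05 there were 3 higher and 6 lower genes, against 25.6% and 3.49% of all genes.

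The calls changed with single libraries, while the log2 fold change of Gbp2 was between -1.20 and -0.85 in the 6 fits that left out 1 library each. Without static replicate 6 there were 5 calls, all lower (Gbp2, Isg15, Oasl2, Rtp4 and Apol9b), and without static replicate 4 there were 5 of both signs, with Ifi27, Oas1a and Usp18 higher and Gbp2 and Oasl1 lower. Without static replicate 1, 2, 3 or 5 the count was 0, as it was without the filter on low TPM. The same split of the flow libraries gave 0 calls by limma, against 0.0176% of all genes higher and 0.00878% lower, and Gbp2 had a log2 fold change of -0.75 (SE 0.40) and Oasl1 one of -1.15 (SE 0.42, limma adjusted p = 0.325). At an unadjusted p under 0.05 the flow libraries had 2 genes higher in replicates 4 to 6 (Samhd1 and Irgm1) and 1 lower (Oasl1), against 11.1% and 1.93% of all genes.

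Ccl5 separated the same sets of libraries by a wide margin. It was at 353, 366 and 396 TPM in static replicates 1 to 3 and at 125, 104 and 105 TPM in static replicates 4 to 6, and at 364, 371 and 369 TPM against 143, 84.3 and 99.9 TPM in the flow libraries. The log2 fold change was -1.73 in static (limma adjusted p = 2.64e-05) and -1.78 in flow libraries (limma adjusted p = 0.0440). Of the 3 chemokines tested, 2 were called lower between the static sets, Ccl5 and Ccl2, against 0.562% of all genes. Of the other pathway lists, 0 genes were called by limma between the static sets. These held 5 receptors, 12 JAK, STAT and IRF genes, 11 sensors, 4 feedback inhibitors and 8 MHC class I genes. At an unadjusted p under 0.05, 6 JAK, STAT and IRF genes, 3 sensors, 1 feedback inhibitor and 1 MHC class I gene were higher, against 25.6% of all genes. Lower was 1 MHC class I gene, against 3.49% of all genes.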

How the data were processed

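RNA-seq of 20 DC2 libraries was analysed in 4 groups that follow the sample labels. The authors deposited TPM, 1 table per experiment. According to the submitters' processing notes, reads were handled with fastp 0.20.0, FastQC 0.11.8, MultiQC 1.8 and kallisto 0.46.2, while the study's methods name Trimmomatic for trimming and tximport for summing transcripts to genes. TPM depend on the other genes of a library and hold no read counts, so no count test was run and no counting interval is given.

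Linear models (lmFit, eBayes with trend, limma 3.58.1, R 4.3.3) were fitted to log2(TPM + 1) of all genes whose mean TPM reached 1 in a table, and p-values were adjusted by Benjamini-Hochberg over all of them. Called genes had an adjusted p under 0.05 and a change over 1.5-fold. The procedure was run on simulated data with independent noise in each library and a log2 change of 1. It recovered 96.4% of the changed genes in the siRNA design and 93.2% between flow and static. The shares were 85% for the static split and 65.5% for the flow split. Of its calls 1.65% to 5.15% were false. Smaller changes and deviations shared by libraries were not simulated, so these shares do not describe them. Promoters, shared sequence and plots were handled in Python 3.11.15 with pandas 2.3.3, numpy 2.4.6 and matplotlib 3.10.9.

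The genes and the pathway and marker lists were chosen with earlier results of these data known. Called genes of the list are given in every library of the comparison that called them. Other values are given by library, by range or as a log2 fold change, and up to 5 genes per pathway list are named. The library values of Ccl2, a pathway gene called between the static sets, are not given. Genes singled out by their pattern over replicate numbers were chosen after their values were seen.

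Static and flow libraries share replicate numbers. The correlations of their deviations from the group means lay at 0.294, 0.463, 0.425, 0.468, 0.662 and 0.600 in numerical order. Static replicate 1 correlated best with flow replicate 3, and the other 5 static libraries with the flow library of their own number. Each of the 6 correlations was over 0.1, and the numbers were therefore taken as pairs in an alternative fit. The deviations were from the mean of the whole group, and later replicate numbers differed from earlier ones over many genes in both conditions. Libraries of different numbers can correlate for that reason, so these correlations do not show that the numbers pair the libraries. The model reported first has no term for the pair, and the model with the pairs as blocks is an alternative given beside it. Alternatives covered the filter, the pseudocount, scaling, library weights, the replicate block, single libraries left out, the fold threshold, the label of flow replicate 6 and subsets of replicates.

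Positions are from GENCODE M21 on GRCm38, an older annotation than the Ensembl transcriptome the authors used. Shared 31-base stretches were counted over the transcripts of that annotation.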

Additional observations from a re-analysis of the deposited data

Results flagged for a closer look

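A library far from the others of its group was found in 8 of 130 groups of values examined, where chance gives about 1 in 20. In the library labelled flow replicate 6, Rsad2 was at 6.25 TPM (others 1.86 to 2.70 TPM) and Usp18 at 7.12 TPM (others 0.632 to 1.79 TPM). Static replicate 6 was the highest for Xaf1 with 24.0 TPM (others 8.87 to 12.7 TPM) and for Isg20, an exonuclease, with 31.8 TPM (others 17.9 to 20.9 TPM). Lgals3bp was lowest in static replicate 4 with 4.58 TPM (others 10.2 to 14.9 TPM), and Ifit2 was highest in flow replicate 5 with 52.8 TPM (others 38.2 to 42.4 TPM). Among the Ift88 siRNA libraries, replicate 1 was the highest for Isg15 with 54.0 TPM (others 46.7 to 47.1 TPM) and the lowest for Rtp4 with 4.91 TPM (others 6.35 to 6.62 TPM). Isg15 remained called without that library.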

How the results depend on the processing

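After Ift88 siRNA, the number of called genes was 6 with a pseudocount of 0.1 and with median-of-ratios scaling, 8 with library weights (adding Rtp4 and Apol9b), 4 of 18 with a minimum of 5 TPM and 1 of 41 without a filter, where more genes were tested. It was 2 to 6 with single libraries left out. The median log2 fold change was 0.33 without a filter, 0.33 with a minimum of 5 TPM and 0.54 with a pseudocount of 0.1. Of the genes never called, Ifitm3 turned to -0.0138 with median-of-ratios scaling and to -0.10 with library weights, and was between -0.0637 and 0.0788 with single libraries left out, as Parp9 was between -0.0510 and 0.142. Between flow and static the count was 0 under every alternative run. Of genes not called there, Ifit2 turned to 0.00609 with median-of-ratios scaling and was between -0.0900 and 0.0104 with single libraries left out. Apol9a turned to -0.0266 with library weights, -0.114 with flow replicate 6 as static and -0.0441 within replicates 4 to 6, and was between -0.0407 and 0.179 with single libraries left out. Oasl1 turned to -0.0714 within replicates 4 to 6 and was between -0.11 and 0.38. In the static split the count was 0 without a filter, 0 with a minimum of 5 TPM, 0 in a fit of all 12 libraries in 4 groups and 0 to 5 with single libraries left out. The cause was not tested. The alternatives without both libraries numbered 6 and with centring on the median of all genes were chosen after seeing the data.

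In fits with a replicate block, 7 genes were called after Ift88 siRNA (adding Rtp4), 0 between flow and static and 0 for the difference in the effect of flow. For the siRNA libraries a pairing by number was not shown. Same-numbered libraries correlated at 0.0464, 0.00276, 0.259 and 0.176, and only replicates 3 and 4 correlated best with their own number. The replicate block changed no other call.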
